A study of Caenorhabditis elegans with 2 samples.

Results

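The genes described here are the 9 through which Caenorhabditis elegans makes, packs, takes up, breaks down and senses the neurotransmitter GABA, out of 19973 nuclear protein-coding genes in the annotation. They were taken as a list by function, and the list was chosen with earlier results of these data known. It held unc-25 for synthesis, unc-47 and unc-46 for vesicle loading, snf-11 for uptake, gta-1 for breakdown, and the receptor genes unc-49, exp-1, lgc-37 and gab-1. A gene's locus was its body plus 5000 bp upstream, and for gab-1 any peak with gab-1 as its nearest protein-coding start was looked for as well. Chromatin bound by the transcription factor UNC-3 was immunoprecipitated with an anti-GFP antibody and sequenced (ChIP-seq). The 2 libraries are biological replicates of 1 group: strain OP578 hermaphrodites, genotype unc-119(tm4063) III with the insertion wgIs578, collected as late embryos 4 h after synchronization by bleaching. Both libraries carry the same transgene, which encodes UNC-3 joined at its C-terminus to GFP and FLAG, so there is no untagged or unc-3 mutant group to compare with. The chromatin came from whole animals, in which strong binding in a few cells and weak binding in many cells cannot be told apart.

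GABA is made from glutamate in a small set of worm neurons, among them the D-type motor neurons that inhibit body wall muscle, and these neurons take their identity from the homeodomain factor UNC-30. UNC-3 is the worm's COE (Collier/Olf/EBF) factor and is best known as the selector of cholinergic motor neurons, the cells that excite both muscle and the D-type neurons. COE proteins bind as dimers to a palindrome in which the arm TCCC and its reverse complement GGGA flank 2 free bases.

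Peaks were read from 4 deposited lists. Those of replicates 1 and 2 listed 20517 and 21474 peaks, and the pooled list, called on both libraries together, listed 15515. The pooled list and both replicate lists include background. Their median deposited −log10 q was 0.10 in the pooled list, 0.08 in replicate 1 and 0.11 in replicate 2. A summit in these lists is thus a listed position, not a site shown to be bound. The list kept after thresholding on the irreproducible discovery rate (IDR, a measure of how well peak ranks repeat between replicates) held 754. These were exactly the 754 pooled peaks of highest signal, down to 60.2, with the next pooled peak at 60.1. A place in the IDR list is therefore not separate from pooled rank. Each peak has a summit, the base of highest signal, and a signal value from the authors' caller, whose scale is unknown. Pooled signal ran from 20.1 to 996.8 with a median of 25.5, replicate 1 signal had a median of 13.9 and replicate 2 signal a median of 13.6. Rank 1 is the strongest peak of a list, and signals are set side by side only within a list. Read depth is unknown, and the control library was not analysed here.

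One GABA gene, the receptor gene gab-1, had a summit in the IDR list. That is 1 of 9 genes, where 6.36% of all protein-coding genes had one by the same rule. In the pooled list 7 of the 9 genes had a summit against 60.4% of all genes, in replicate 1 the count was 8 of 9 against 71.9%, and in replicate 2 it was 8 of 9 against 71.7%. The genes for making, packing, taking up and breaking down GABA had no IDR summit. The GABA loci were longer than usual, with a median of 8951 bp against 7027 bp for all genes. Among the 9676 genes whose loci fell within the GABA genes' range of lengths, 7.38% had an IDR summit, 68.7% a pooled summit, 79.8% a replicate 1 summit and 79.5% a replicate 2 summit. Counted by length of DNA, the GABA loci held 15.5 pooled summits per 100 kb, as did the nuclear genome at 15.5, and the 1 IDR summit made 1.11 per 100 kb against 0.739. By these counts the GABA loci were covered about as densely as the genome at large.

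**Figure D1:**
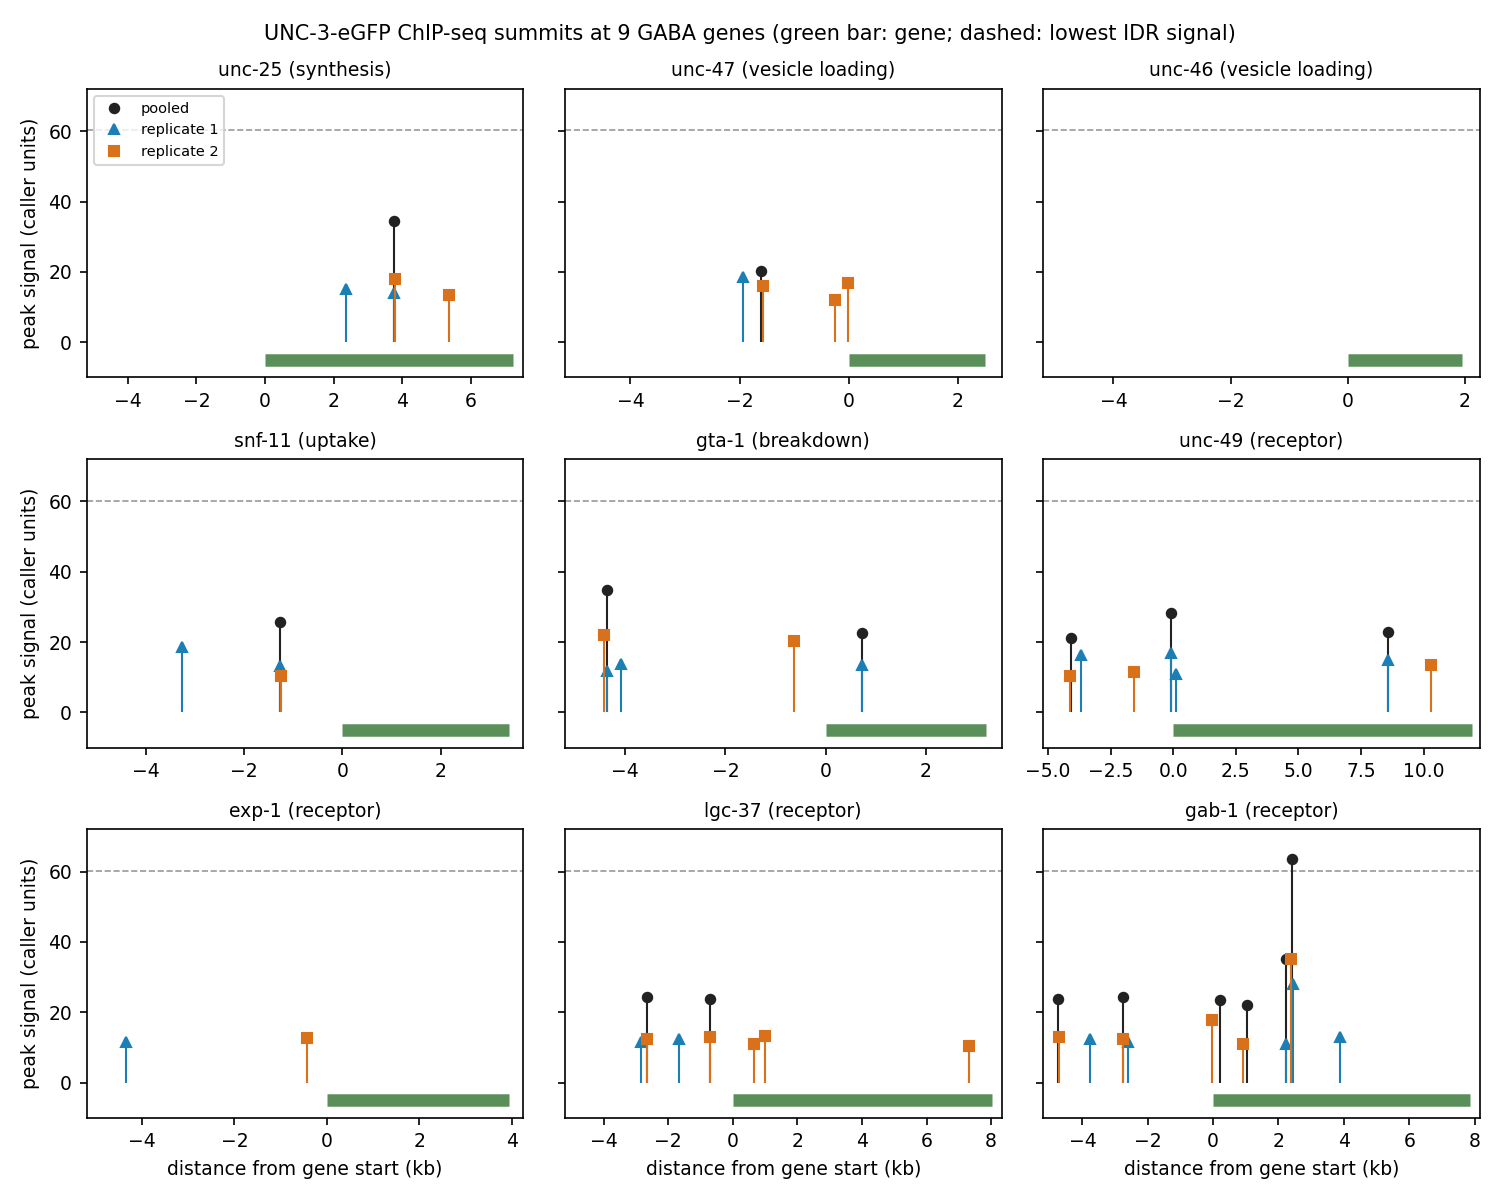
Summits of the pooled list and both replicate lists in the locus of each GABA gene, by distance from the gene start in kb. Gene bodies are drawn as bars and the lowest IDR signal as a dashed line. The IDR list has 1 summit, inside gab-1, and unc-46 has none in any list.

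The summit in gab-1 lay on a COE palindrome. The 101 bases centred on it, in ce11 on the minus strand, the strand of gab-1, are shown because this was the only GABA locus summit with an exact match, which is in capitals. The 10-base match with 10 bases on either side is given on the plus strand.
gab-1 summit, chrIII:12777248-12777348, minus strand: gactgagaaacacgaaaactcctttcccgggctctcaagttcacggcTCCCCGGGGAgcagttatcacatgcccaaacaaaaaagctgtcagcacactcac
gab-1 palindrome with flanks, plus strand: tgataactgcTCCCCGGGGAgccgtgaact

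gab-1 (WBGene00001512, chrIII:12771868-12779726, minus strand) encodes a subunit of the GABA-A type of ligand-gated ion channel. Its IDR summit was at position 12777298, 2428 bp into the gene, in intron 2, which is 2018 bp long. The signal was 63.6, rank 660 of 754 in the IDR list and rank 660 of 15515 in the pooled list. Only 94 IDR peaks were weaker, so the peak stood near the lower end of that list, whose lowest signal was 60.2. In replicate 1 the overlapping peak had a signal of 28.0, rank 952 of 20517, with its summit 4 bp away. In replicate 2 it had a signal of 35.3, rank 712 of 21474, with its summit 44 bp away. Both replicates thus placed the peak among their stronger peaks and in the same part of the intron, although it was beyond rank 754 in replicate 1. The deposited −log10 q was 1.23 in replicate 1, 2.04 in replicate 2 and 1.87 in the IDR list, where every peak has that value. By the strongest pooled signal in the locus, 5.60% of all protein-coding genes were as strong as gab-1 or stronger.

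The palindrome occupied chrIII:12777292-12777301, and its centre was 1.5 bp from the pooled summit. No other exact TCCCNNGGGA, which reads the same on both strands, occurred in any of the 9 loci. A match was present in 1 of the 9 GABA loci (11.1%) and in 560 of all 19973 loci (2.80%). Within 100 bp of the summit it occurred at 37 of 741 nuclear IDR summits (4.99%), at 126 of 15499 nuclear pooled summits (0.813%) and at 1 of 14 pooled summits in GABA loci (7.14%). Of those 126 pooled summits, 2 (1.59%) had the centre of a match within 5 bp, and the median distance was 33.5 bp. An IDR summit with the palindrome fell in the locus of 48 protein-coding genes, 0.240% of all. For pooled summits with the palindrome that number was 168 genes, or 0.841%. These shares describe how often the letters occur and are not a test of the GABA list.

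gab-1 held 3 further pooled summits within the gene. One lay at 12777507 in the same intron, with a signal of 35.3 and rank 2696. It overlapped the same replicate peaks as its stronger neighbour, and its own summit in replicate 1, at 12777495, had a signal of only 11 and rank 19634. A summit at 12778686, also in intron 2, had a pooled signal of 22.0, rank 12155, a replicate 2 signal of 11 and no overlapping peak in replicate 1. A summit at 12779530 in intron 1, 196 bp from the gene start, had a pooled signal of 23.5, rank 10054, and a replicate 2 signal of 17.8 with none in replicate 1. For the pair nearer the gene start, then, only replicate 2 listed an overlapping peak. The pooled summit at 12779530 was itself just outside that replicate 2 peak, which began at 12779532. No peak with gab-1 as its nearest protein-coding start lay outside the locus, where 1 IDR summit and 4 pooled summits had it as nearest. The replicate 2 summits of that pair were at 12778807 (rank 18472), 121 bp away, and at 12779772 (rank 4534), 242 bp away and 46 bp upstream of the gene. Replicate 1 alone listed a summit at 12775847 in coding sequence, with a signal of 13.1 and rank 12331.

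lgc-37 (WBGene00013914, chrIII:12785154-12793176, plus strand) encodes another subunit of the same channel family and is the divergent neighbour of gab-1, with 5427 bp between the gene starts. Both of its pooled summits were in the shared stretch and so counted for both genes. The one at 12782493, 2661 bp upstream of lgc-37 and 2767 bp upstream of gab-1, had a pooled signal of 24.3, rank 9090, with signals of 11.6 in replicate 1 (rank 17015) and 12.5 in replicate 2 (rank 13568). The one at 12784462, 692 bp upstream of lgc-37, had a pooled signal of 23.8, rank 9638, a replicate 2 signal of 13.0 and no overlapping peak in replicate 1. Both were below the pooled median of 25.5. The gab-1 IDR summit is 7856 bp from the start of lgc-37, outside its locus. Peaks seen in a single replicate were weak as well: at 12783496 in replicate 1, 1658 bp upstream, the signal was 12.3 (rank 14599), and in replicate 2 the signals were 11, 13.4 and 10.5 at 12785814, 12786165 and 12792481 within the gene, with ranks 18443, 11189 and 20629.

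**Figure D2:**
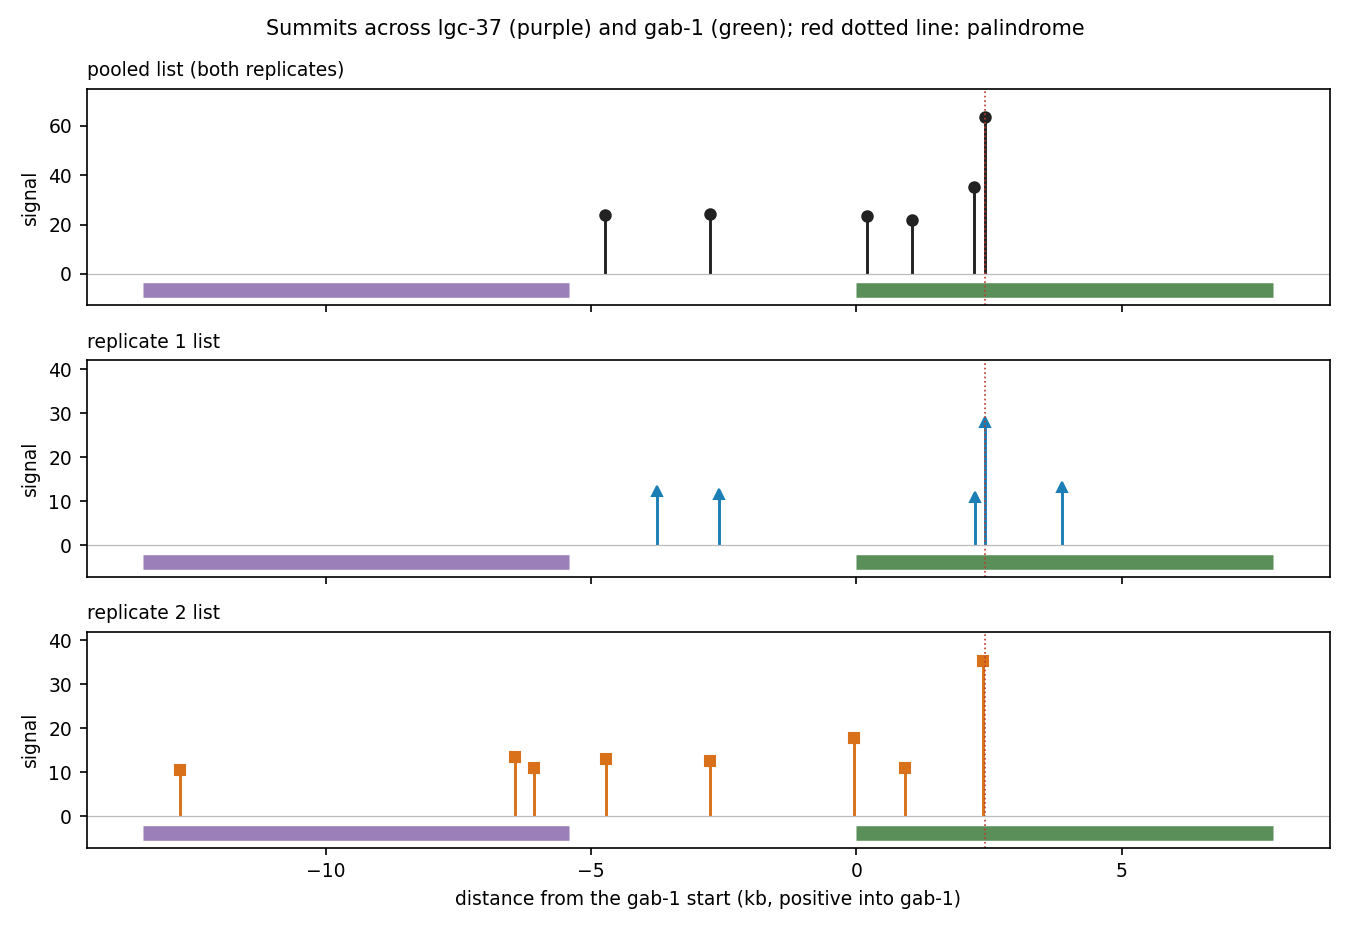
Signal of every summit around the divergent genes gab-1 and lgc-37 in the pooled list and both replicate lists. Distance is from the gab-1 start in kb, and a dotted line marks the palindrome. The tall summit in gab-1, 63.6 in the pooled and IDR lists, 28.0 in replicate 1 and 35.3 in replicate 2, exceeds the other summits of each list in this stretch.

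The other receptor genes had weak summits. unc-49 (WBGene00006784, chrIII:10520762-10532705, plus strand) encodes the subunits of the chloride channel through which GABA relaxes body wall muscle. Its strongest pooled summit, at 10520687 and 75 bp upstream of the gene, had a signal of 28.4 and rank 5431. Replicate 1 had a peak there with a signal of 17, rank 5263 and a summit 8 bp away, and replicate 2 had none. The sequence around it is shown because it held the other GABA locus summit at which the palindrome was found with 1 mismatch allowed, in capitals.
unc-49 summit, chrIII:10520637-10520737, plus strand: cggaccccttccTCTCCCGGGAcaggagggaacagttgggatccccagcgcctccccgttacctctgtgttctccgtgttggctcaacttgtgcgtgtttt

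The centre of that match was 33.5 bp from the summit. With 1 mismatch allowed, 2 of the 14 pooled summits in GABA loci had a match within 100 bp (14.3%), as did 720 of 15499 nuclear pooled summits (4.65%). The sequence within 100 bp of the summit was 53.7% G or C, against a median of 36.3% over nuclear pooled summits, and that around the gab-1 summit was 45.3%. The part of base composition in these matches was not tested.

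unc-49 had 2 other pooled summits. The one at 10516657, 4105 bp upstream and inside an intron of sly-1, had a pooled signal of 21.3 (rank 13295), with 16.4 in replicate 1 (rank 5807) and 10.5 in replicate 2 (rank 20486). The one at 10529342, in coding sequence, had a pooled signal of 22.9 (rank 10774) and 14.8 in replicate 1 (rank 8356), with no overlapping peak in replicate 2. Of the 3 unc-49 summits, then, 1 overlapped a peak of both replicates, that at 10516657. The replicate 1 summit was 433 bp from it and the replicate 2 summit 38 bp. Summits listed in a single replicate were at 10520885 in replicate 1 (signal 10.9, rank 19994) and at 10519185 and 10531052 in replicate 2 (signals 11.6 and 13.5, ranks 16183 and 10921). The nearest IDR summit was 59425 bp from the gene start, by atx-2, the ataxin-2 gene, with a signal of 331.9 and rank 11.

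exp-1 (WBGene00001373, chrII:6157144-6161094, minus strand) encodes the cation channel by which GABA contracts the enteric muscles during defecation. It had no IDR or pooled summit, like 39.6% of all protein-coding genes in the pooled list. Replicate 1 had a summit 4348 bp upstream at 6165442, nearest to the start of hst-3.1, with a signal of 11.5 and rank 17460. Replicate 2 had one 421 bp upstream at 6161515, with a signal of 12.7 and rank 12915. The replicates thus listed different positions, each below the median of its list.

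unc-25 (WBGene00006762, chrIII:12942651-12949883, plus strand) encodes glutamate decarboxylase, the enzyme that makes GABA. Its single pooled summit, at 12946419 in an intron 3768 bp into the gene, had a signal of 34.4, rank 2932 and a −log10 q of 0.44. The replicates had signals of 13.9 (rank 10219) and 18.0 (rank 4418), with summits 5 bp and 38 bp away. The position repeated closely, at the list's median in replicate 1 and above it in replicate 2. Its sequence is shown because it is the strongest summit at a synthesis or transport gene, and it held no palindrome, even with 1 mismatch.
unc-25 summit, chrIII:12946369-12946469, plus strand: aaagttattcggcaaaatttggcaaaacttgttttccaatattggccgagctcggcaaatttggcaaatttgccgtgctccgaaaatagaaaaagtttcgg

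Signal as strong as that in the unc-25 locus was reached in 19.5% of all protein-coding genes. Replicate 1 also listed a summit at 12945020 (signal 15.2, rank 7768) and replicate 2 one at 12948026 (signal 13.4, rank 11134), both in coding sequence. The nearest IDR summit was 37434 bp from the gene start, by cox-5A.

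unc-47 (WBGene00006783, chrIII:10183762-10186260, minus strand) encodes the transporter that fills synaptic vesicles with GABA. Its pooled summit at 10187860, 1600 bp upstream, had a signal of 20.3 and rank 15043, near the bottom of the list, and was closer to the start of epac-1, at 1352 bp. The overlapping replicate peaks ranked far higher, with signals of 18.6 (rank 3760) and 16.0 (rank 6515), but their summits were 346 bp and 27 bp from the pooled one. Replicate 2 listed a summit 6 bp upstream of the gene at 10186266 (signal 16.7, rank 5625) and another at 10186518 (signal 11.9, rank 15383). Neither of those was matched by a summit in the pooled list. unc-46 (WBGene00006782, chrV:5097075-5099025, minus strand), whose LAMP-like protein brings the UNC-47 transporter to vesicles, had no summit in any of the 4 lists. Its locus of 6951 bp was the shortest of the 9, and the nearest IDR summit was 134627 bp away.

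snf-11 (WBGene00004910, chrV:11305070-11308446, minus strand) encodes the plasma membrane transporter that takes GABA back up. Its pooled summit at 11309720, 1274 bp upstream, had a signal of 25.8, rank 7459, with 13.2 in replicate 1 (rank 11965) and 10.4 in replicate 2 (rank 20813). All of these were near or below the middle of their lists. Replicate 1 alone had a summit at 11311713, in an intron of T03F7.7, with a signal of 18.6 and rank 3709. A far stronger IDR summit lay just outside the locus, at 11314241 and 5795 bp upstream of snf-11, with a signal of 215.4 and rank 34, and signals of 98.8 in replicate 1 and 114.8 in replicate 2. That summit was 17 bp from the small nucleolar RNA (snoRNA) gene T03F7.8, and its nearest protein-coding start was cutl-18, at 2660 bp. With loci extended to 10000 bp upstream it would be counted for snf-11, and the gab-1 summit for lgc-37, which makes 3 of 9 genes with an IDR summit against 9.50% of all genes.

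gta-1 (WBGene00001794, chrIV:10180660-10183865, plus strand) encodes GABA transaminase, which breaks GABA down. Its stronger pooled summit, at 10176297, had a signal of 34.7, rank 2843, and was 4363 bp upstream of gta-1 but 383 bp from the start of rack-1. Replicate 2 had a signal of 22.0 there (rank 2296, summit 53 bp away). Replicate 1 had 2 overlapping peaks, one with its summit at 10176307, nearly at the pooled summit, with a signal of 11.7 (rank 16689), and a stronger one with its summit 275 bp away and a signal of 13.7 (rank 10741). The stronger replicate 1 summit lay within the snoRNA gene K04D7.17, which was 194 bp from the pooled summit, and no other pooled summit in a GABA locus was within 200 bp of a small RNA gene. The sequence is shown as the strongest pooled summit after those in gab-1, and it is rich in A and T, at 25.9% G or C within 100 bp.
gta-1 upstream summit, chrIV:10176247-10176347, plus strand: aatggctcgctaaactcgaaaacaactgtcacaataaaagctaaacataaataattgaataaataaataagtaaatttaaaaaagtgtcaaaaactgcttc

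A weaker summit at 10181383, in an intron 723 bp into the gene, had a pooled signal of 22.6 (rank 11215) and 13.6 in replicate 1 (rank 11071), and no overlapping peak in replicate 2. Replicate 2 instead listed a summit 632 bp upstream at 10180028, in an untranslated region of mspn-1, with a signal of 20.4 and rank 2917.

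**Figure D3:**
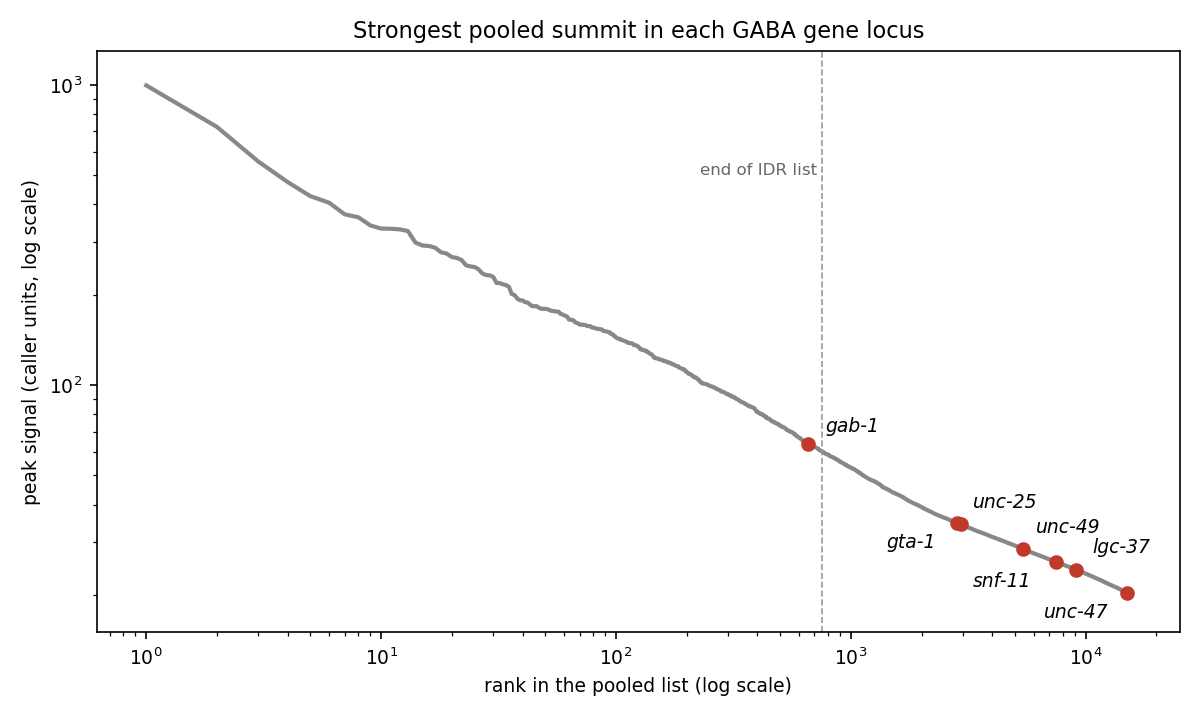
Signal of all pooled peaks against their rank, both on log scales, with the strongest summit of each GABA locus as a point and the end of the IDR list as a dashed line. gab-1, at rank 660, is the only GABA gene before the line, and the other 6 run from rank 2843 (gta-1) to rank 15043 (unc-47).

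Across the loci the 14 distinct pooled summits had a median signal of 24.1, close to the median of 25.5 over all nuclear pooled peaks, and 6 of them were above it. By place, 7 were upstream, 6 in introns and 1 in coding sequence. A peak of both replicates was overlapped by 8 of them (57.1%), against 50.6% of all nuclear pooled peaks. Another 3 overlapped a peak of replicate 1 only and 3 a peak of replicate 2 only. When the replicate summits also had to lie within 100 bp of the pooled summit, 4 of the 14 remained, those at 12777298 in gab-1, at 12946419 in unc-25, at 11309720 by snf-11 and at 10176297 by gta-1, the last through the weaker of its replicate 1 peaks. The share of all nuclear pooled peaks that meet this rule was not counted, so the 4 of 14 cannot be called few or many. Ordered by strongest pooled signal, the genes ran gab-1 (63.6), gta-1 (34.7), unc-25 (34.4), unc-49 (28.4), snf-11 (25.8), lgc-37 (24.3) and unc-47 (20.3). The order after gab-1 was not the same in both replicates. unc-25 and gta-1 were nearly tied at these summits in replicate 1 (13.9 and 13.7), and gta-1 was higher in replicate 2 (22.0 against 18.0). The 13.7 belongs to the gta-1 peak with its summit 275 bp from the pooled one, and the nearer peak had 11.7. gab-1 was the strongest of the 9 in both replicates.

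**Figure D4:**
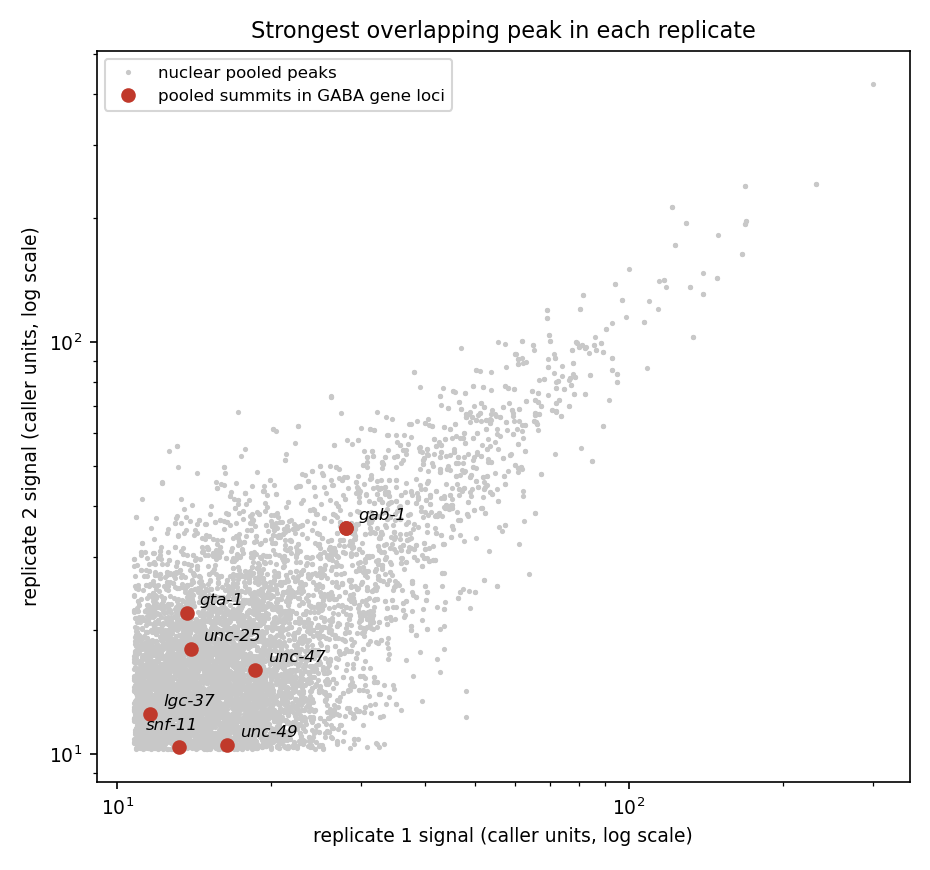
Strongest overlapping replicate 2 signal against replicate 1 signal, on log scales, for pooled peaks found in both (grey) and for the strongest such summit of each GABA locus (red). gab-1, at 28.0 and 35.3, stands above the other 6, which lie between 11.6 and 18.6 in replicate 1 and between 10.4 and 22.0 in replicate 2.

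UNC-30 belongs to the Pitx class of homeodomain proteins, which recognise TAATCC. These letters were searched on both strands from 250 bp before to 50 bp after each gene start, and they occurred at 4 of the 9 GABA genes (44.4%) and at 1872 of 19973 genes (9.37%). The matches upstream of a gene are shown in capitals on the gene's strand, because they mark where UNC-3 summits were and were not found.
unc-25, 107 bp upstream, chrIII:12942544-12942549: ttgctcattgGGATTAtagtcacgcc
unc-25, 57 bp upstream, chrIII:12942594-12942599: tgagccacagTAATCCttgggggcgg
unc-47, 189 bp upstream, chrIII:10186444-10186449: tagggtctaaTAATCCcccgtgctct

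The matches at gta-1 and lgc-37 were downstream of the start, in coding sequence. The unc-25 pair was 3875 bp and 3825 bp from the nearest pooled summit and at least 2426 bp from a replicate 1 summit and 3863 bp from a replicate 2 summit. The unc-47 match was 1416 bp from the nearest pooled summit and 74 bp from the replicate 2 summit of signal 11.9. It lay inside that replicate 2 peak and also inside the stronger replicate 2 peak of signal 16.7 (rank 5625). No pooled UNC-3 summit therefore lay at the TAATCC matches upstream of unc-25 and unc-47, and a match in these letters is a description, not a bound site.

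A list of 18 further genes, for GABA receptors, GABA breakdown, GABA neuron transcription factors and synapse organisers, was counted by the same locus rule. Of these 4 had an IDR summit (against 6.36% of all protein-coding genes), 13 a pooled summit (against 60.4%), 15 a replicate 1 summit (against 71.9%) and 15 a replicate 2 summit (against 71.7%). Their loci were long as well, with a median of 10358 bp, and among the 12542 genes whose loci fell in their range of lengths the shares were 7.10%, 66.6%, 77.7% and 77.6%. By role, IDR summits were found at 1 of 5 receptor genes, 0 of 1 breakdown gene, 1 of 7 transcription factor genes and 2 of 5 synapse organiser genes. gbb-1, a subunit of the metabotropic GABA-B receptor, had a summit 173 bp upstream with a signal of 65.6, rank 621, and replicate signals of 34.1 and 31.6. lin-2, a CASK-type scaffold gene, had one in an intron (signal 73.5, rank 496, replicates 32.6 and 41.6). nlg-1, the neuroligin gene, had one 1294 bp upstream (signal 68.6, rank 577, replicates 34.2 and 33.7). Like the gab-1 summit, all of these were in the weaker part of the IDR list, whose median is 84.6.

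elt-1, a GATA factor gene, had an IDR summit 3179 bp upstream with a signal of 66.6, rank 606, and replicate signals of 32.9 and 28.8. A palindrome with the same 10 letters as in gab-1 was 74 bp from it, and its sequence is shown beside the one in gab-1 on the plus strand, with the match in capitals.
elt-1, chrIV:9611886-9611895: gaggagatagTCCCCGGGGAactatctact
gab-1, chrIII:12777292-12777301: tgataactgcTCCCCGGGGAgccgtgaact

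The flanks of the matches differ, and elt-1 was the only one of the 18 genes with the palindrome within 100 bp of an IDR summit. unc-30 itself had no pooled summit. Replicate 1 listed a summit at 13119397 (signal 12.7, rank 13647) and replicate 2 one at 13123244 (signal 10.9, rank 18628), which are different places in its introns. Over the 9 GABA genes and the 18 further genes together, 5 of 27 had an IDR summit, against 6.36% of all genes. They were gab-1, gbb-1, elt-1, nlg-1 and lin-2. A pooled summit was found at 20, against 60.4%. Both sets of loci were longer than usual, and the shares for genes of like length are given above. For comparison, the cholinergic locus of cha-1 and unc-17, which encode the enzyme that makes acetylcholine and its vesicular transporter, had an IDR summit with a signal of 75.5 and rank 468, with 30.7 in replicate 1 and 49.6 in replicate 2. A palindrome lay 7 bp from that summit, and 102 bp from the replicate 1 summit of signal 30.7. Another exact palindrome, upstream of both genes, was 45 bp from a pooled summit of signal 22.8. gab-1 was thus weaker than the cholinergic locus in the pooled list and in both replicates, though with 1 peak a gene and 2 replicates that difference was not tested.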

How the data were processed

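The authors deposited peak lists in narrowPeak layout. Per the file headers, peaks of a replicate were called on its own alignment against a control and pooled peaks on both alignments, and the IDR list was made from these lists. The signal deposited by the authors for each peak served only for ranks and descriptions within a list. The deposited −log10 q-values are given beside a few peaks. The sources used here do not name the aligner, the caller or the IDR threshold. Without a known depth, no interval is given. The ce10 lists were not used here.

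Summits were assigned to Ensembl release 115 genes on WBcel235 (ce11), with 1-based coordinates. A locus was the gene body plus 5000 bp upstream. Replicate peaks were matched to a pooled peak by an overlap of at least 1 bp. Motifs were searched in the RefSeq WBcel235 sequence, from which all printed sequences were read. Python 3.11.15, pandas 2.3.3 and NumPy 2.4.6 were used. The summit search and the motif search were checked on planted summits and palindromes, which tests the code only. There is 1 group, so no test between conditions was made. Replicates are those the labels call biological, and their cultures are not described. All 9 genes are named, with the nearest start of each summit where it is another gene, those of the 18 further genes with an IDR summit, and cha-1 and unc-17. unc-30, T03F7.7, sly-1 and mspn-1 were named after their values were seen. The members and lists were chosen with earlier results of these data known. Alternatives covered the locus, the matching of replicates, the motif rule, the stronger part of each list and each replicate alone.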

Additional observations from a re-analysis of the deposited data

How the results depend on the processing

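Of 20 alternatives for the 4 counts, 13 stayed within 1.5 times the reported count. The count of 1 GABA gene with an IDR summit became 3 with 10000 bp upstream (snf-11, lgc-37 and gab-1, against 9.50% of all genes) and 0 when only the stronger part of the IDR list, above its median signal, was kept (3.42% of all genes). With the 754 strongest peaks of a single replicate in place of the IDR list it ranged from 0 (without replicate 2, against 6.25% of all genes, since gab-1 is at rank 952 in replicate 1) to 1 (without replicate 1, against 6.11%). The 7 genes with a pooled summit became 4 with the gene body only (24.7% of all genes) and 8 with either replicate list alone (71.9% of all genes without replicate 2 and 71.7% without replicate 1). The 8 pooled summits overlapping peaks of both replicates became 4 with summits within 100 bp, 6 within 200 bp, and 4 when only the stronger part of each replicate list counted. Shares of all nuclear pooled peaks were not counted for these rules. The 1 summit with the palindrome became 2 with 1 mismatch allowed. For the rank of the strongest summit at 7 genes, as a percent of the list, the summit was taken anywhere in the locus in each list. Of 14 single-replicate values, 7 were within 1.5 times the pooled one, all of those at unc-49, lgc-37 and gab-1 among them. A similar rank did not always mean the same summit. At unc-49 the strongest was at 10520687 in the pooled list and at 10531052 in replicate 2. At lgc-37 it was at 12782493 in the pooled list, 12783496 in replicate 1 and 12786165 in replicate 2. unc-25 moved from 18.9% to 37.9% without replicate 2, where the strongest summit was another one, at 12945020. gta-1 moved from 18.3% to 52.4% without replicate 2 and 10.7% without replicate 1. snf-11 moved from 48.1% to 18.1% without replicate 2, where the strongest summit was another one, at 11311713, and to 96.9% without replicate 1. At unc-47 the strongest summit in the locus was 97.0% of the way down the pooled list, 18.3% down that of replicate 1 and 26.2% down that of replicate 2, at a different position in each, and the cause was not tested. Depth is unknown, so a locus without a summit is one with none listed, not one shown to be unbound.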
